A study of Mus musculus with 4 samples.

Results

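The genes of cholesterol synthesis, uptake, storage and efflux were examined in the right testis of hemicastrated mice and of sham-operated control mice. The list holds 34 genes, chosen by name for their place in the pathway, with earlier results of these data known. All 34 were found among the 22073 genes of the expression table. They cover 20 enzymes of synthesis, 6 regulators, 3 efflux genes, 3 genes of cholesteryl ester storage and release, 1 intracellular carrier and 1 receptor. Hemicastrated mice had lost the left testis before puberty (2 libraries), and control mice had a sham operation at that time (2 libraries). All were male mice of the outbred KM strain, and the remaining right testis was frozen after maturation, at an age the labels leave unstated. Polyadenylated RNA was sequenced, and levels are given as FPKM, a unit scaled to transcript length and library size, so that different genes can be compared. The design text counts 2 mice in each group while the protocol text counts 3, and no label ties a library to a litter or an operation day.

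Cholesterol is built from acetyl-CoA through mevalonate, squalene and lanosterol, and the steps downstream of lanosterol remove methyl groups and rearrange or reduce double bonds. The transcription factor SREBP2 switches these enzymes on when sterols in the endoplasmic reticulum run low. INSIG proteins hold SREBP and its escort SCAP back when sterols are plentiful. In the testis, Leydig cells turn cholesterol into testosterone, and germ cells accumulate sterol intermediates of the steps just after lanosterol, known as meiosis-activating sterols.

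The promoters of 26 of the 34 genes were matched by symbol to RefSeq windows on GRCm38.p6 that run from 250 bases before to 50 after the start, and the most upstream window of each gene was used. The windows of 7 genes are shown. They belong to the gene that passed the test (Acat2) and to the gene with the sterol response element form TCACNCCAC (Hmgcs1). The others belong to enzymes downstream of lanosterol with lower values (Tm7sf2, Msmo1, Nsdhl, Ebp) or overlapping values (Cyp51) after hemicastration. Capitals mark the sterol response element TCACNCCAC, the NF-Y motif CCAAT and the Sp1 motif GGGCGG on either strand. The Acat2 window lies at chr17:12960676-12960975, minus strand. That of Hmgcs1 lies at chr13:119690101-119690400, plus strand. That of Cyp51 lies at chr5:4104648-4104947, minus strand. The Tm7sf2 window is at chr19:6067801-6068100, minus strand, and the Msmo1 window is at chr8:64733529-64733828, minus strand. The X-linked genes follow, with Nsdhl at chrX:72918271-72918570, plus strand and Ebp at chrX:8193463-8193762, minus strand.
Acat2: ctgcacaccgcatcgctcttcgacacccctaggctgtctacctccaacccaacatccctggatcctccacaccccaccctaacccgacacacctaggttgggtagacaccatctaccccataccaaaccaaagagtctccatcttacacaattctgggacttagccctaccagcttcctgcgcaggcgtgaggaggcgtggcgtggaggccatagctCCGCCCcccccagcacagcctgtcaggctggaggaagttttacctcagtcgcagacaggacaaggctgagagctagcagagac
Hmgcs1: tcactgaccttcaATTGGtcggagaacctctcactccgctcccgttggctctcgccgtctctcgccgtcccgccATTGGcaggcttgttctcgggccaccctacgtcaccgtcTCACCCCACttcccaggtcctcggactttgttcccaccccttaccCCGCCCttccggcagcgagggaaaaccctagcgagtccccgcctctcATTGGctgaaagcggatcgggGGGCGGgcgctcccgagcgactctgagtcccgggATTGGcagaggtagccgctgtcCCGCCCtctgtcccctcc
Cyp51: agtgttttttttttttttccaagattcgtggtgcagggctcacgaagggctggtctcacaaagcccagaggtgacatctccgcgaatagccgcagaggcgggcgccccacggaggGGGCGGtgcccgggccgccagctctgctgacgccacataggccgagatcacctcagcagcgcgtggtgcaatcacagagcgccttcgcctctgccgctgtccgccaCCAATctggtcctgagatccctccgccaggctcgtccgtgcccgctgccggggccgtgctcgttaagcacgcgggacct
Tm7sf2: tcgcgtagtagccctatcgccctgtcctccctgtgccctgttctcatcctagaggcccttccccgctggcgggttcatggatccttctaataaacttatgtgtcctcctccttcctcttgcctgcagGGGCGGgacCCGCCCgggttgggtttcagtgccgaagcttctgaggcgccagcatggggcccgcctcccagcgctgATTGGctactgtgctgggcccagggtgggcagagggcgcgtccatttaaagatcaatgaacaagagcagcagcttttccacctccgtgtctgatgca
Msmo1: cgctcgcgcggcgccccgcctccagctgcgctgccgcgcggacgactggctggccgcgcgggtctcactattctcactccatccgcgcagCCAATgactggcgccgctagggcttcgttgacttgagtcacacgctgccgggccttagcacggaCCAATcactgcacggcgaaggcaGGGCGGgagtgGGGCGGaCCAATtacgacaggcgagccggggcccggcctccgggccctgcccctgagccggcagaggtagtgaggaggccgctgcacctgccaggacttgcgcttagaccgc
Nsdhl: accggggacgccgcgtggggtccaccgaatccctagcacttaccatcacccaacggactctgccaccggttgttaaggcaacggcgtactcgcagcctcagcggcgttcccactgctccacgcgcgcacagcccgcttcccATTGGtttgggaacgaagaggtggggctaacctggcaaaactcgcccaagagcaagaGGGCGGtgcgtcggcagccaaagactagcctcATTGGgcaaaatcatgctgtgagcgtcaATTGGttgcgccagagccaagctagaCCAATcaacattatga
Ebp: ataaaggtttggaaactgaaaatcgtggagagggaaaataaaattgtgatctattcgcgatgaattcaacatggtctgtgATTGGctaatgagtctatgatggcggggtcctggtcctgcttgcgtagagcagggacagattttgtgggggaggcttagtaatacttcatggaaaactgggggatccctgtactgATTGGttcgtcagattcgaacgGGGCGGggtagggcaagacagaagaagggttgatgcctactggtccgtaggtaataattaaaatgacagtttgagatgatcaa

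GGGCGG and CCAAT were the most frequent of these motifs. CCAAT was present in 19 of the 26 windows, in 13 of the 15 that belong to synthesis enzymes and in 7 of the 8 downstream of lanosterol, against 38% of 27025 promoters and 39.5% of the 8946 promoters of tested genes. Dhcr7 was the enzyme downstream of lanosterol without it. GGGCGG was present in 21 of 26 windows, 14 of 15 and 8 of 8, against 35.9% of all promoters and 61.9% of those of tested genes. The exact form TCACNCCAC of the sterol response element was found in Hmgcs1 alone, at -137 to -129 from the start. It was present in 1.22% of all promoters and 1.01% of those of tested genes. Sterol response elements that differ from this form were not searched, so the other windows may hold them. The E-box CACGTG was found in Abca1, Hsd17b7, Insig1, Lipe, Sc5d and Scap, 6 of 26 windows, against 7.24% of all promoters and 10.3% of those of tested genes. The cyclic AMP response element was searched as TGACGTCA and as the wider form TGACGTNA that contains it. Both were found in 0 of 26 windows, against 1.85% and 3.06% of all promoters and 3.36% and 5.21% of those of tested genes. Other forms of this element were not searched. The windows of Cyp51, Tm7sf2, Msmo1, Nsdhl and Ebp all hold both CCAAT and GGGCGG, as do those of Hsd17b7 and Sc5d. Dhcr7, whose values overlapped between the groups as those of Cyp51 did, holds GGGCGG alone of these. The part of these motifs in the values was not tested.

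Levels spanned a wide range. Squalene synthase Fdft1 was the most abundant of the 34 genes with a mean of 87.2 FPKM over the 4 libraries, followed by the hormone-sensitive lipase Lipe at 80.1, the thiolase Acat3 at 46.5, apolipoprotein Apoe at 35.2, squalene epoxidase Sqle at 27.8, the SREBP retention factor Insig2 at 26.4 and lanosterol demethylase Cyp51 at 22.0. Over the 4 libraries each of these genes overlapped the range of the next in this order, except Lipe and Acat3. The remaining enzymes downstream of lanosterol stood between 1.03 FPKM (Hsd17b7) and 9.66 FPKM (Nsdhl), below Cyp51. At the low end, Mylip had a mean of 0.382 FPKM, Abcg1 of 0.202 and Soat2 of 0.0235, and Mvd, the mevalonate diphosphate decarboxylase, was listed at 0 in all 4 libraries. Ribosomal protein genes such as Rpl13 and Rpl17 are also listed at 0 in all 4, so a 0 in this table can be a failed estimate.

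**Figure D1:**
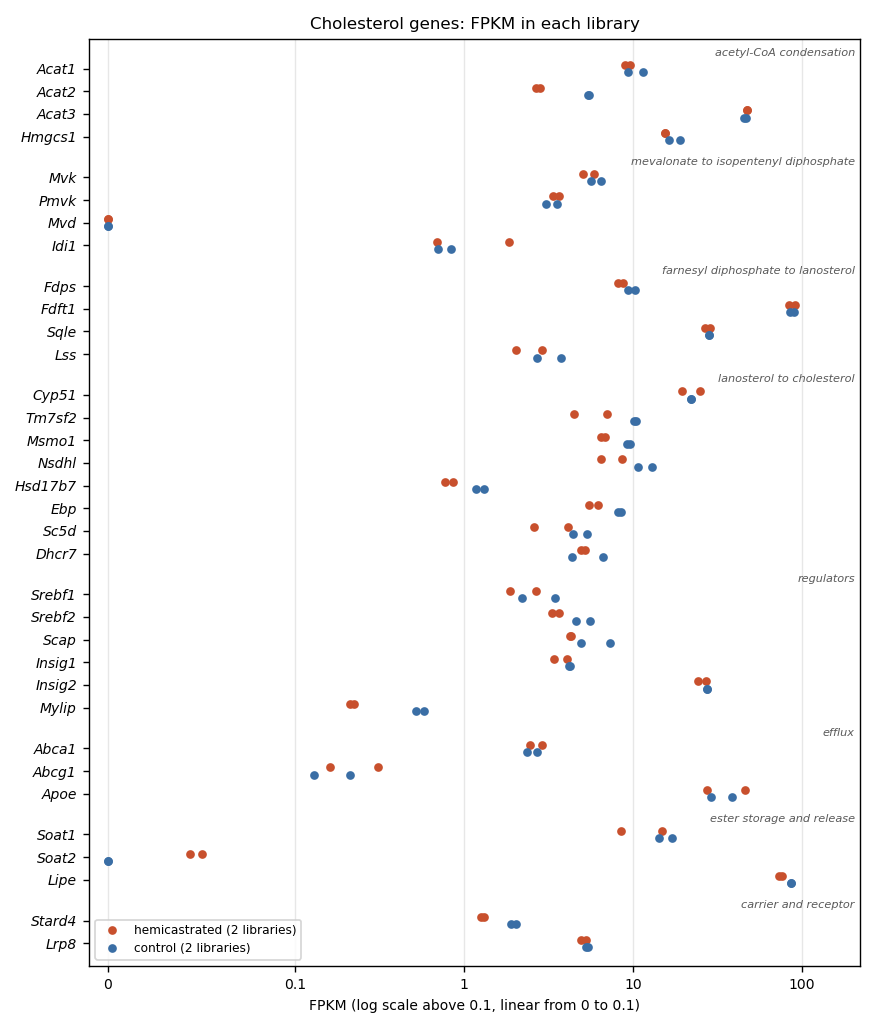
FPKM of each of the 34 cholesterol genes in each library (horizontal axis, log scale above 0.1 FPKM and linear below), grouped by pathway step, with hemicastrated libraries drawn above control libraries. Fdft1, Lipe and Acat3 lie highest, Mvd is at 0 throughout, and the hemicastrated points of Acat2, Tm7sf2, Msmo1, Nsdhl, Hsd17b7, Ebp and Mylip lie left of the control points.

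The test was restricted to genes averaging 1 FPKM or more, a filter that 30 of the 34 genes passed and that Mvd, Mylip, Abcg1 and Soat2 did not. Idi1 (mean 1.01 FPKM) and Hsd17b7 (mean 1.03 FPKM) passed only through the libraries in which they were higher. Of the 30, 1 gene fell and 0 rose after hemicastration at an adjusted p under 0.05 (limma, Benjamini-Hochberg over 11343 genes), where 1.19% of all tested genes fell and 0.106% rose. At an unadjusted p under 0.05, 8 of the 30 were lower, against 6.52% of all tested genes, and 0 were higher, against 3.98% of all tested genes. Both hemicastrated libraries lay below both controls in 15 of the 30, against 24.8% of all tested genes, and above both in 1, against 16.3% of all tested genes. Without Idi1 and Hsd17b7, 14 of 28 lay below both controls, against 23.5% of the 10914 genes averaging 1 FPKM or more in both groups. The median log2 fold change, on the log2(FPKM + 1) scale as all fold changes here, was -0.18 for the 30 genes and -0.03 for all tested genes. In a whole testis, fewer cells of a type and less RNA per cell cannot be told apart.

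**Figure D2:**
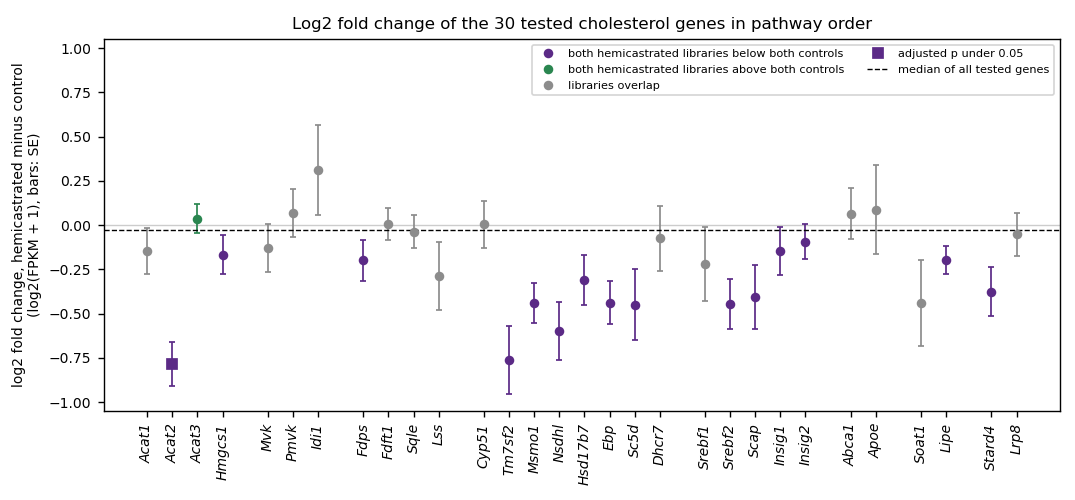
Log2 fold change (hemicastrated minus control, log2(FPKM + 1) scale, bars are the SE from limma) of the 30 tested genes in pathway order. Acat2, the square, is the gene with an adjusted p under 0.05, and 6 of the 8 enzymes downstream of lanosterol have both hemicastrated libraries below both controls, against 24.8% of all tested genes.

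The libraries also differed in transcripts of other cell types. As a background for the counts below, 1.19% of all tested genes fell and 0.106% rose at a limma adjusted p under 0.05. At an unadjusted p under 0.05, 6.52% of all tested genes were lower and 3.98% higher. The 8 epididymal epithelium markers summed to 4.91 and 6.71 FPKM in hemicastrated libraries, against 1003 and 1465 FPKM in controls. Spink8 had 3.19 and 4.45 FPKM in hemicastrated libraries, against 206.4 and 298.5 FPKM in controls, and it fell (log2 fold change -5.70, limma adjusted p = 6.45e-05). Crisp1, Adam7, Defb2 and Defb28 passed the filter only through the control libraries, so their calls are not counted here, and Adam7 and Defb2 were listed at 0 in both hemicastrated libraries. Rnase10 overlapped between the groups, and Lcn8 was listed at 0 in all libraries. Smooth muscle markers (6) summed to 30.6 and 27.7 FPKM against 97.2 and 76.8 FPKM in controls. When Cnn1, which passed the filter only through the controls, is left aside, 4 of 5 tested fell. Of the 10914 genes averaging 1 FPKM or more in both groups, 54 fell. The 6 adipocyte markers summed to 6.01 and 7.51 FPKM against 19.9 and 11.7 FPKM in controls, with 0 of 3 tested called in limma. Of these, Cfd and Fabp4 passed the filter only through the controls, and Adipoq overlapped between the groups at 5.25 and 6.01 FPKM in hemicastrated libraries, against 5.78 and 6.39 FPKM in controls. Sertoli cell markers (8) summed to 300.4 and 298 FPKM against 189 and 216.5 FPKM in controls. That sum is mostly Cst9 and Cst12. Cst9 had 110.5 and 111.5 FPKM in hemicastrated libraries, against 62.8 and 76.7 FPKM in controls. Cst12 had 107.2 and 109.2 FPKM against 56.3 and 74.5 FPKM in controls. Gata4 was lower without overlap, and Wt1, Sox9 and Amh overlapped. Of the Sertoli markers 0 of 6 tested were called and 3 were higher at an unadjusted p under 0.05. Leydig cell markers (7) summed to 1897 and 1795 FPKM against 1629 and 1528 FPKM in controls, with 0 of 7 called, 1 lower and 2 higher at that level. That sum is mostly Insl3, which had 1609 and 1484 FPKM in hemicastrated libraries, against 1272 and 1232 FPKM in controls, while log2 fold changes were below 0 for 5 of the 7 Leydig markers, with a median of -0.13 over the list. Spermatocyte markers (7) summed to 2870 and 3201 FPKM in hemicastrated libraries, against 2766 and 2829 FPKM in controls. That sum is mostly Ldhc, which overlapped between the groups at 2504 and 2891 FPKM in hemicastrated libraries, against 2503 and 2549 FPKM in controls. Of the spermatocyte markers 0 of 7 were called and 4 were higher at that level, with a median log2 fold change of 0.38. Round spermatid markers (6) summed to 842.3 and 821.9 FPKM in hemicastrated libraries, against 746.3 and 718 FPKM in controls, with 0 of 6 called, 4 higher at that level and a median log2 fold change of 0.23. The 6 markers of elongating spermatids summed to 22590 and 22512 FPKM against 20149 and 21401 FPKM in controls, with 0 of 6 called, 1 higher at that level and a median log2 fold change of 0.02. Of the macrophage markers 0 of 5 tested were called and 1 was lower at that level, with sums of 43.1 and 37.9 FPKM against 51.1 and 49.1 FPKM in controls. The part of these cell types in the values of the cholesterol genes was not tested.

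**Figure D3:**
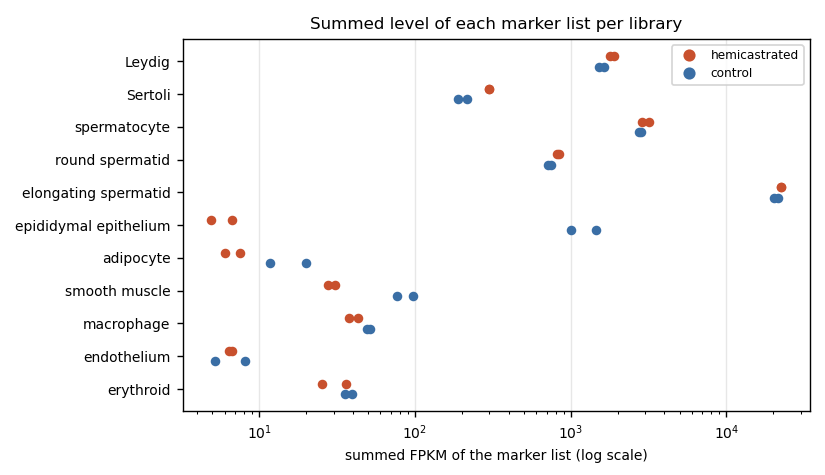
Summed FPKM of each marker list in each library (horizontal axis, log scale), hemicastrated libraries above control libraries. The epididymal epithelium sum is 4.91 and 6.71 FPKM in hemicastrated libraries against 1003 and 1465 FPKM in controls. The Leydig (mostly Insl3), Sertoli (mostly Cst9 and Cst12) and germ cell sums of both hemicastrated libraries lie above those of both controls. The spermatocyte sum is mostly Ldhc, which overlapped between the groups.

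Synthesis starts with the joining of acetyl-CoA units, and here the cytosolic thiolase Acat2 (ENSMUSG00000023832, chromosome 17, 12942890 to 12960747, GRCm38) stood lower after hemicastration. It had 2.67 and 2.82 FPKM in hemicastrated libraries, against 5.41 and 5.50 FPKM in controls. The groups did not overlap, and the hemicastrated mean was 50.3% of the control mean (2.75 ± 0.11 against 5.46 ± 0.06 FPKM, SD, n = 2 each; log2 fold change -0.79, SE 0.12, limma adjusted p = 0.0473). The call lay close to the threshold and was lost when any single library was left out (adjusted p 0.126 without hemicastrated 1, 0.0846 without hemicastrated 2, 0.312 without control 1 and 0.323 without control 2). It was also lost when low genes were kept (adjusted p = 0.137) and under quantile normalization (adjusted p = 0.0815), while the log2 fold change ranged from -0.96 to -0.71 over 11 alternatives.

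The neighbouring gene Acat3 (chromosome 17, 12923813 to 12940600) is a near copy of Acat2: 45.9% of the 50-base words of the longest Acat2 transcript also occur in Acat3 transcripts. Reads in that shared sequence cannot be assigned by sequence alone, so the split between the genes is uncertain, and Acat3 overlaps exons of Tcp1 on the opposite strand as well. Acat3 had 47.1 and 47.2 FPKM in hemicastrated libraries, against 46.4 and 45.5 FPKM in controls. The hemicastrated libraries lay just above the controls, and the log2 fold change was 0.04 (limma adjusted p = 0.921). The ratio of Acat2 to Acat3 was 0.0567 and 0.0598 in hemicastrated libraries, against 0.117 and 0.121 in controls. The mitochondrial thiolase Acat1, better known for ketone body and isoleucine breakdown, had 9.51 and 8.94 FPKM in hemicastrated libraries, against 11.4 and 9.34 FPKM in controls, with overlapping groups (log2 fold change -0.15, limma adjusted p = 0.764). Hmgcs1, which makes HMG-CoA in the cytosol, had 15.5 and 15.5 FPKM in hemicastrated libraries, against 18.9 and 16.2 FPKM in controls. Its groups did not overlap, with a log2 fold change of -0.17 (limma adjusted p = 0.678), and an antisense gene, Gm48342, shares exon sequence with it.

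Of the 3 tested genes from mevalonate to isopentenyl diphosphate, 0 passed the limma test at an adjusted p under 0.05, where 1.19% of all tested genes fell and 0.106% rose. At an unadjusted p under 0.05, 0 passed as well, where 6.52% of all tested genes were lower and 3.98% higher. Mevalonate kinase Mvk had 5.04 and 5.86 FPKM in hemicastrated libraries, against 6.46 and 5.65 FPKM in controls, and phosphomevalonate kinase Pmvk had 3.63 and 3.33 FPKM, against 3.53 and 3.04 FPKM in controls. Both overlapped between the groups. Idi1, the isomerase that makes the second building block of isoprenoids, was at 0.690 and 1.84 FPKM in hemicastrated libraries, against 0.832 and 0.698 FPKM in controls. Hemicastrated 2 alone stood high, and the log2 fold change of 0.31 (SE 0.25, limma adjusted p = 0.736) was -0.06 without it. Of the 50-base words of the longest Idi1 transcript, 30.5% recur in other genes such as the copy Gm13502 and the opposite-strand gene Gm48574.

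Of the 4 enzymes from farnesyl diphosphate to lanosterol, 0 passed the limma test at an adjusted p under 0.05, where 1.19% of all tested genes fell and 0.106% rose. At an unadjusted p under 0.05, 0 passed as well, where 6.52% of all tested genes were lower and 3.98% higher. Fdft1, which joins farnesyl units into squalene, had 83.5 and 91.3 FPKM in hemicastrated libraries, against 89.7 and 84.3 FPKM in controls. Its groups overlapped and its log2 fold change was 0.005 (SE 0.09, limma adjusted p = 0.991), with a sign that turned under quantile normalization and rescaling to TPM. The cathepsin gene Ctsb overlaps it on the opposite strand, and 30.7% of the 50-base words of the longest Fdft1 transcript recur in other genes. Squalene epoxidase Sqle had 26.5 and 28.4 FPKM in hemicastrated libraries, against 28.2 and 28.1 FPKM in controls (log2 fold change -0.04, SE 0.09, limma adjusted p = 0.926). Farnesyl diphosphate synthase Fdps had 8.09 and 8.68 FPKM in hemicastrated libraries, against 10.2 and 9.31 FPKM in controls, without overlap (log2 fold change -0.20, limma adjusted p = 0.626). Its value is uncertain, since 86.4% of the 50-base words of its longest transcript recur in other genes such as the overlapping Gm43738. Lanosterol synthase Lss had 2.90 and 2.02 FPKM in hemicastrated libraries, against 3.75 and 2.70 FPKM in controls, with overlap (log2 fold change -0.29, limma adjusted p = 0.678).

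Downstream of lanosterol, 6 of the 8 enzymes had both hemicastrated libraries below both controls (Tm7sf2, Msmo1, Nsdhl, Hsd17b7, Ebp and Sc5d), against 24.8% of all tested genes. Leaving aside Hsd17b7, which passed the filter only through the controls, this held for 5 of 7. The share was 23.5% of the 10914 genes averaging 1 FPKM or more in both groups. In limma 0 of the 8 passed the adjusted threshold, where 1.19% of all tested genes fell and 0.106% rose. An unadjusted p under 0.05 was found for 4 of the 8, all lower, against 6.52% of all tested genes. The median log2 fold change of the 8 was -0.44, against -0.03 for all tested genes, and together they summed to 53.1 and 60.9 FPKM in hemicastrated libraries, against 76.4 and 69.8 FPKM in controls.

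Removal of the first methyl group is the task of Cyp51, whose product is a meiosis-activating sterol, and its libraries overlapped between the groups. Cyp51 (chromosome 5, 4081145 to 4104746) had 19.4 and 24.8 FPKM in hemicastrated libraries, against 21.8 and 21.9 FPKM in controls. The hemicastrated libraries lay on either side of the controls, with a log2 fold change of 0.003 (SE 0.13, limma adjusted p = 0.997) that was -0.01 after rescaling to TPM and -0.17 without hemicastrated 2. Tm7sf2 (chromosome 19, 6062821 to 6068373), the sterol reductase that acts next, had 7.0 and 4.48 FPKM in hemicastrated libraries, against 10.4 and 10.1 FPKM in controls. Hemicastrated 2 was the lowest of the 4 libraries, and exons of Vps51 overlap the gene on the same strand. The log2 fold change of -0.76 (SE 0.19) had a limma adjusted p of 0.204. It was -1.03 with an adjusted p of 0.0241 without hemicastrated 1 and -0.49 with an adjusted p of 0.25 without hemicastrated 2.

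The enzymes that take off the remaining methyl groups, Msmo1, Nsdhl and Hsd17b7, act as a group on the endoplasmic reticulum. The oxidase Msmo1 (chromosome 8, 64718139 to 64733792) had 6.43 and 6.80 FPKM in hemicastrated libraries, against 9.53 and 9.13 FPKM in controls. Its libraries were close within each group, and its log2 fold change was -0.44 (SE 0.11, limma adjusted p = 0.22). The dehydrogenase Nsdhl (chromosome X, 72918557 to 72958514) had 6.45 and 8.54 FPKM in hemicastrated libraries, against 13.0 and 10.7 FPKM in controls. The spread within each group was wider here, and the log2 fold change was -0.60 (SE 0.16, limma adjusted p = 0.243). The ketoreductase Hsd17b7 had 0.851 and 0.768 FPKM in hemicastrated libraries, against 1.32 and 1.18 FPKM in controls (log2 fold change -0.31, limma adjusted p = 0.526), and the pseudocount compresses a gene at this level. All 3 stood without overlap between the groups.

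The isomerase Ebp (chromosome X, 8185329 to 8193512) had 5.50 and 6.21 FPKM in hemicastrated libraries, against 8.45 and 8.11 FPKM in controls. Hemicastrated levels averaged 70.7% of the control mean, with a log2 fold change of -0.44 (SE 0.12, limma adjusted p = 0.248). The desaturase Sc5d had 2.57 and 4.11 FPKM in hemicastrated libraries, against 5.29 and 4.41 FPKM in controls, so that hemicastrated 2 came close to the lower control (log2 fold change -0.45, SE 0.20, limma adjusted p = 0.512; -0.19 to -0.71 when single libraries were left out). Dhcr7, the reductase that completes cholesterol in one branch of the pathway, had 4.91 and 5.19 FPKM in hemicastrated libraries, against 6.59 and 4.35 FPKM in controls. The controls enclosed the hemicastrated values, and the log2 fold change was -0.08 (limma adjusted p = 0.927).

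**Figure D4:**
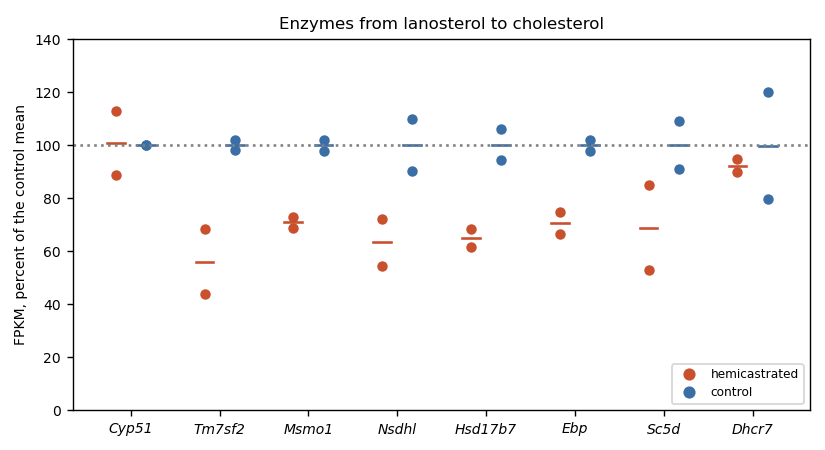
FPKM of the 8 enzymes from lanosterol to cholesterol in each library, as a percentage of the control mean (points are libraries, short lines are group means, hemicastrated left of control). Tm7sf2 lies at 68.4% and 43.8% and Msmo1 at 68.9% and 72.9% in hemicastrated libraries, while Cyp51 lies at 88.6% and 113%.

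Of the 5 tested regulators, 0 passed the limma test at an adjusted p under 0.05, where 1.19% of all tested genes fell and 0.106% rose. At an unadjusted p under 0.05, 1 was lower, against 6.52% of all tested genes. Both hemicastrated libraries lay below both controls in 4 of the 5, against 24.8% of all tested genes. These were Srebf2, Scap, Insig1 and Insig2, the last 2 by a narrow margin. Srebf2, which encodes the factor that drives the synthesis genes, had 3.30 and 3.62 FPKM in hemicastrated libraries, against 5.57 and 4.61 FPKM in controls. The groups did not overlap, with a log2 fold change of -0.45 (SE 0.14, limma adjusted p = 0.324). Its escort Scap had 4.26 and 4.23 FPKM in hemicastrated libraries, against 7.23 and 4.88 FPKM in controls, where control 1 stood apart and an opposite-strand gene, 5830462I19Rik, shares exon sequence (log2 fold change -0.41, limma adjusted p = 0.509, and -0.16 without control 1). Srebf1, whose product acts mainly on fatty acid genes, had 1.87 and 2.64 FPKM in hemicastrated libraries, against 3.42 and 2.2 FPKM in controls, with overlap (log2 fold change -0.22, limma adjusted p = 0.78). The retention factors Insig1 and Insig2 had log2 fold changes of -0.14 and -0.10 (limma adjusted p = 0.775 and 0.8). Insig1 had 3.38 and 4.05 FPKM in hemicastrated libraries, against 4.23 and 4.17 FPKM in controls. Insig2 had 24.1 and 26.9 FPKM in hemicastrated libraries, against 27.4 and 27.2 FPKM in controls. In both genes hemicastrated 2 came close to the lower control. Insig2 exceeded Insig1 6.65- to 7.12-fold in hemicastrated libraries and 6.48- to 6.52-fold in controls. Mylip, a ubiquitin ligase that marks lipoprotein receptors for breakdown and is switched on by liver X receptors, was under the filter at 0.212 and 0.223 FPKM in hemicastrated libraries, against 0.574 and 0.520 FPKM in controls. Its groups did not overlap, and with no filter on low values its log2 fold change was -0.35 (limma adjusted p = 0.198).

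The efflux genes, which hand cholesterol to lipoproteins, overlapped between the groups. The transporter Abca1 had 2.90 and 2.44 FPKM in hemicastrated libraries, against 2.34 and 2.68 FPKM in controls (log2 fold change 0.06, limma adjusted p = 0.92, with a sign that turned without hemicastrated 1 or control 1). Its relative Abcg1 was at 0.310 and 0.160 FPKM in hemicastrated libraries, against 0.210 and 0.128 FPKM in controls. Apoe, the apolipoprotein made by macrophages and other somatic cells, had 46.1 and 27.3 FPKM in hemicastrated libraries, against 38.4 and 28.9 FPKM in controls. It varied as much within groups as between them, with a log2 fold change of 0.09 (SE 0.25, limma adjusted p = 0.938) that was -0.28 without hemicastrated 1.

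Cholesteryl esters are the store from which steroid-making cells draw. The esterifying enzyme Soat1 had 8.41 and 14.8 FPKM in hemicastrated libraries, against 16.9 and 14.2 FPKM in controls. Hemicastrated 1 stood low while hemicastrated 2 lay between the controls, so the log2 fold change of -0.44 (SE 0.24, limma adjusted p = 0.604) was -0.07 without hemicastrated 1 and -0.81 without hemicastrated 2. Its relative Soat2, known from liver and intestine, was at 0.0503 and 0.0437 FPKM in hemicastrated libraries and listed at 0 in both controls. Lipe, which releases cholesterol from esters and without which male mice are infertile, had 75.8 and 73.2 FPKM in hemicastrated libraries, against 85.9 and 85.4 FPKM in controls. The libraries agreed closely within each group and did not overlap between them (74.5 ± 1.8 against 85.7 ± 0.3 FPKM, SD, n = 2 each), and the log2 fold change of -0.20 (SE 0.08) had a limma adjusted p of 0.46. The summed adipocyte markers given above were lower in the same libraries through Cfd, Fabp4 and Plin1, while Adipoq overlapped, and their part in Lipe was not tested.

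The sterol carrier Stard4, which moves cholesterol between membranes, had 1.31 and 1.25 FPKM in hemicastrated libraries, against 2.03 and 1.88 FPKM in controls. The groups did not overlap, with a log2 fold change of -0.38 (SE 0.14, limma adjusted p = 0.404). Lrp8, a receptor for apolipoprotein E and reelin, had 5.28 and 4.88 FPKM in hemicastrated libraries, against 5.37 and 5.23 FPKM in controls, with overlap (log2 fold change -0.05, limma adjusted p = 0.922).

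A companion list of 43 other genes of the pathway put the values in context. Of these, 35 were tested. At a limma adjusted p under 0.05, 2 fell, against 1.19% of all tested genes, and 0 rose, against 0.106%. At an unadjusted p under 0.05, 3 (8.57%) were lower, against 6.52% of all tested genes, and 2 (5.71%) were higher, against 3.98%. Below both controls without overlap stood 10 of the 35 (28.6%), against 24.8% of all tested genes, and above them 6 (17.1%), against 16.3% of all tested genes, shares near those of all genes. Their median log2 fold change was -0.07. The lysosomal cholesterol-binding protein Npc2, also a known secretion of the epididymis, had 10.1 and 10.5 FPKM in hemicastrated libraries, against 20.1 and 20.3 FPKM in controls. It fell by 0.91 on the log2 scale (SE 0.10, limma adjusted p = 0.00934), and the call was lost on leaving out either control library (adjusted p = 0.109 and 0.127). The transporter Abca2 had 1.64 and 1.38 FPKM in hemicastrated libraries, against 4.37 and 3.53 FPKM in controls (log2 fold change -0.98, SE 0.15, limma adjusted p = 0.0457), a call that was lost when any single library was left out (adjusted p 0.0641 to 0.306). Star, the carrier of cholesterol into mitochondria, and Cyp46a1, an enzyme that hydroxylates cholesterol, had the next smallest p values without a call. Cyp46a1 had 4.04 and 5.05 FPKM in hemicastrated libraries, against 1.74 and 3.22 FPKM in controls (log2 fold change 0.70, limma adjusted p = 0.34). Star had a log2 fold change of 0.43 (limma adjusted p = 0.335), opposite in sign to the side-chain cleavage enzyme Cyp11a1 at -0.31 (limma adjusted p = 0.506). The summed epididymal epithelium and smooth muscle markers given above were also lower in the hemicastrated libraries. Their part in the values of Npc2 and Abca2 was not tested.

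**Figure D5:**
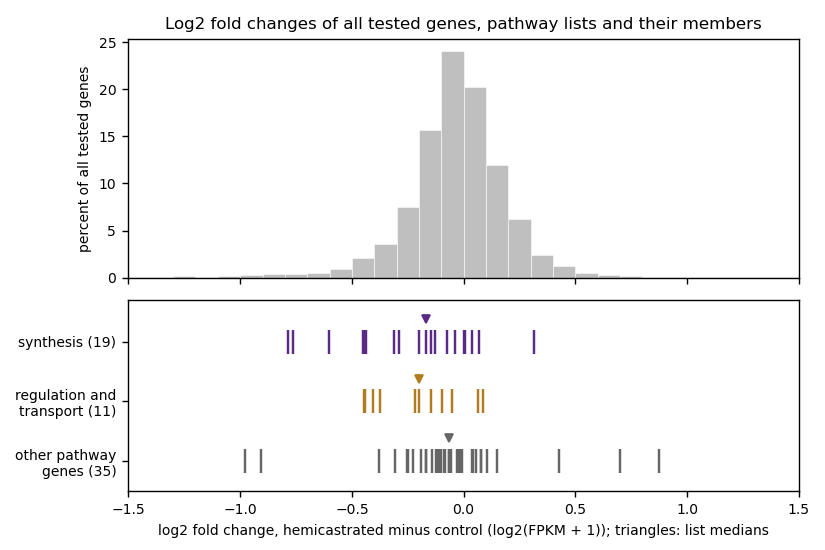
Upper panel, percentage of all tested genes per 0.1-wide bin of log2 fold change (hemicastrated minus control, log2(FPKM + 1) scale), with 104 genes outside the plotted range. Lower panel, each tested gene of the synthesis list (19), the regulation and transport list (11) and the companion list (35) as a line and the list median as a triangle, at -0.17, -0.20 and -0.07.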

How the data were processed

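The authors deposited FPKM, 1 value per gene and library. TopHat2 2.0.11, Cufflinks 2.2.1 and GRCm38 are listed in the submitters' processing notes, without roles; the annotation was not stated. The labels call the molecule genomic DNA, but poly(A) RNA is what the protocol describes. No strand was marked, so antisense and overlapping genes share reads. FPKM carries no counts, so depth is unknown. Summed FPKM was 343105 and 353135 in hemicastrated and 346632 and 344316 in control libraries. Symbols came from GENCODE M21 (GRCm38), which named 21806 of 22073 genes.

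Values of the 11343 genes averaging 1 FPKM or more were compared as log2(FPKM + 1) by limma 3.58.1 (R 4.3.3; variance trend, no covariate, two-sided, Benjamini-Hochberg over all tested genes, threshold 0.05), after tests on simulated data. For 2 against 2 libraries an exact permutation test reaches a two-sided p of 0.33 at best, so the test depends on variance pooled across genes. P-values set the difference between the groups against a spread between libraries that is partly pooled across genes. With 2 libraries per group they say little about variation between mice. Genes, companion list, markers and motifs were chosen with earlier results of these data known. All 34 genes are named, and of the companion list the called genes and the 4 with the smallest p. Cyp11a1, Ch25h, Sult2b1 and Apoa1 were named after their values were seen.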

Additional observations from a re-analysis of the deposited data

How the results depend on the processing

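With 2 libraries per group, the calls rest on few values. Over all tested genes, 135 fell and 12 rose. When testing was limited to genes averaging 5 FPKM or more, 63 fell and 7 rose, and with no filter 3 rose. Leaving out single libraries gave 78 to 156 lower and 0 to 26 higher genes, where 78 lower and 0 higher came without control 2, at which 1000 genes had an unadjusted p under 0.05 in limma. Of the cholesterol genes, 1 fell with all libraries, and 0 fell with no filter, at an average of 5 FPKM or more (Acat2 was then not tested) or under quantile normalization, and 0 to 1 with single libraries left out. The gene called without hemicastrated 1 was Tm7sf2, not Acat2. Of 30 tested cholesterol genes, 28 had no call in any setting. Calls were rare over all tested genes too, at 1.19% lower and 0.106% higher with all libraries. The share of all genes without a call in any setting was not counted.

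The same-numbered libraries share only a number, and the correlation of their deviations across genes was 0.0137. With the replicate number as a block, 167 genes fell and 30 rose over all genes, and 1 cholesterol gene fell (Acat2, adjusted p = 0.0412). The median log2 fold change of the synthesis genes was -0.17, and -0.275 to -0.062 with single libraries left out. That of the regulation and transport genes was -0.20, and -0.247 to -0.0986 with single libraries left out. Signs turned in at least 1 alternative for 10 of the 30 genes, to values of at most 0.281 in size, with no call. Under quantile normalization the log2 fold change was -0.02 for Fdft1 and 0.00553 for Lrp8, and after rescaling to TPM it was -0.00591 for Fdft1 and -0.00754 for Cyp51. With single libraries left out it ranged from -0.0148 to 0.149 for Pmvk, -0.0611 to 0.687 for Idi1, -0.0587 to 0.0685 for Fdft1, -0.0837 to 0.00854 for Sqle, -0.166 to 0.173 for Cyp51, -0.327 to 0.177 for Dhcr7, -0.451 to 0.0165 for Srebf1, -0.028 to 0.155 for Abca1 and -0.28 to 0.46 for Apoe. The cause of these changes was not tested.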

Other observations

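Of the enzymes in the companion list that modify cholesterol or oxysterols, Ch25h, Sult2b1 and Cyp7b1 lay under the filter on low values. Ch25h and Sult2b1 had values near 0 in the hemicastrated libraries and above 1 FPKM in both controls. Cyp7b1 was at 0.0541 and 0.0234 FPKM in hemicastrated libraries, against 0.103 and 0.0999 FPKM in controls. The share of all genes under the filter with such values was not counted. Ch25h, which makes an oxysterol and was named after its values were seen, had 0.127 and 0.0550 FPKM in hemicastrated libraries, against 1.66 and 1.78 FPKM in controls. With no filter on low values its log2 fold change was -1.32 (limma adjusted p = 0.0234), a setting in which 117 of 18587 genes fell. Sult2b1, which adds sulfate to cholesterol and is known from epithelia, had 0.136 and 0.236 FPKM in hemicastrated libraries, against 1.45 and 2.15 FPKM in controls (log2 fold change -1.23 and limma adjusted p = 0.0923 with no filter). The summed epididymal epithelium markers were lower in the same libraries through Crisp1, Adam7, Spink8, Defb28 and Defb2, while Rnase10 overlapped. Their part in the values of Ch25h and Sult2b1 was not tested. Apoa1, the apolipoprotein that accepts cholesterol from Abca1, was at 7.56 and 2.15 FPKM in hemicastrated libraries, against 2.59 and 1.23 FPKM in controls, and hemicastrated 1 alone stood apart (log2 fold change 0.88, SE 0.47, limma adjusted p = 0.595).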
